A study of Rattus norvegicus with 9 samples.

Results

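The 10 genes described here regulate the unfolded protein response and the integrated stress response, the programmes with which a cell answers misfolded protein in the endoplasmic reticulum (ER) and shortage of amino acids. They were chosen by name as the rows Xbp1, Ern1, Atf6, Eif2ak3, Atf4, Ddit3, Trib3, Asns, Chac1 and Ppp1r15a of a table of read counts for 24496 genes. All 10 were present once, and all 10 were among the 11924 genes that passed the filter on low counts. The lowest count of any of them in any library was 19, for Asns.

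The counts come from liver of 9 individual female Wistar rats of 19 weeks, of which 4 received follicle-stimulating hormone (FSH) by osmotic pump at 6 µg per kg per day and 5 received pumps with vehicle. Animals of both groups had eaten western diet from 10 weeks of age, had lost their ovaries after 6 weeks of it and had been given degarelix, an antagonist of the receptor for gonadotropin-releasing hormone. Their food was restricted for 12 days and then unrestricted for 7 days, and the tissue was taken after 4 h without food. The comparison asks what FSH does to liver transcripts in animals without ovarian hormones and with their own gonadotropin release blocked.

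Libraries held 23430807 to 27008941 counts with FSH and 19295580 to 28672439 with vehicle. Values are given as CPM, counts per 1e6 of the scaled library total, where 1 read is worth 0.0353 to 0.0532 CPM. The tissue label was checked against 8 hepatocyte markers, all of which were present, and their sum lay between 178124 and 281680 CPM with FSH and between 201857 and 248851 CPM with vehicle. FSH replicate 1 stood apart, since albumin (Alb) took 19.4% of its counts and 10.5 to 16.7% of the counts in the other 8 libraries. Vehicle replicates 1 and 2 stood apart on the first principal component, at 27.3 and 22.9, against 1.87 to 4.88 in the other vehicle livers and -22.7 to -9.99 in the FSH livers. These are whole-tissue libraries, in which fewer cells of a type and less RNA per cell cannot be told apart.

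The unfolded protein response has sensors in the ER membrane. IRE1, the product of Ern1, cuts the Xbp1 messenger so that it encodes an active transcription factor. ATF6 travels to the Golgi and is cut there to release a transcription factor, and PERK, the product of Eif2ak3, phosphorylates the initiation factor eIF2 and slows translation. The same phosphorylation by other kinases, in amino acid shortage or viral infection, feeds the integrated stress response, in which the messenger of Atf4 is translated more and its product switches on genes such as Ddit3, Trib3, Asns and Chac1. Ppp1r15a closes the loop by bringing a phosphatase to eIF2. Hepatocytes secrete large amounts of plasma protein, and in the liver Xbp1 is also known for its part in lipid synthesis. The counts are sums per gene: they neither separate the cut from the uncut Xbp1 messenger nor measure phosphorylation or translation.

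The promoters of 8 of the 10 genes were found in the RefSeq promoter table (build GRCr8, another build than that of the counts), and the 250 bases before the start were searched on both strands for the sites through which these pathways act. The sites were the ER stress element (ERSE, CCAAT and CCACG 9 bases apart), the unfolded protein response element TGACGTGG, the composite C/EBP-ATF site TGATGCAA to which ATF4 binds, and the cyclic AMP response element TGACGTCA, which shares its first letters with TGACGTGG. The 3 promoters with a match, those of Xbp1, Chac1 and Ppp1r15a, are shown with the match in capitals, and each matched a different site. Xbp1 (chr14:84604373-84604622, plus strand) holds an ERSE 65 to 47 bases before the start. Chac1 (chr3:126795881-126796130, plus strand) holds the C/EBP-ATF site on the opposite strand 167 to 160 bases before the start. Ppp1r15a (chr1:105139597-105139846, minus strand) holds the cyclic AMP element 66 to 59 bases before the start.
Xbp1: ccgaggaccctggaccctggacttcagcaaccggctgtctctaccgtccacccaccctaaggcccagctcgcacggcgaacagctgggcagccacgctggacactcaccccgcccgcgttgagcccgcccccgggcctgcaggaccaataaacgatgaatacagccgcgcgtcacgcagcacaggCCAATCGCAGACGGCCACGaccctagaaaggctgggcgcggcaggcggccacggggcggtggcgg
Chac1: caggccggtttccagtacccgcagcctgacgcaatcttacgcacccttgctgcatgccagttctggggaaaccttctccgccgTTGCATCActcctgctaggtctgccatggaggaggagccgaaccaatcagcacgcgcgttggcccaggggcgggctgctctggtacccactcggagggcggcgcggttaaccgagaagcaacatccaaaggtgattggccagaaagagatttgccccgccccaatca
Ppp1r15a: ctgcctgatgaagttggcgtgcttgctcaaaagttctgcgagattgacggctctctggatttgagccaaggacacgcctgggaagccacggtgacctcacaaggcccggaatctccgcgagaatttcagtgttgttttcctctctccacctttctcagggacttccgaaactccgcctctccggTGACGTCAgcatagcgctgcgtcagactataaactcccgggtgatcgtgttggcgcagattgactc
Among all 33469 promoters in that table, 0.0657% held an ERSE of this spelling, 0.693% the C/EBP-ATF site, 1.59% the cyclic AMP element and 0.52% the unfolded protein response element, which was in none of the 8. A match is a description of these letters only.

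None of the 10 regulators passed the threshold of an adjusted p (FDR) under 0.05 in edgeR's quasi-likelihood test over all genes, where 0.0335% of genes passed. Fitted fold changes with FSH over vehicle were above 0 for 8 of the 10, against 50.5% of all genes, with a median of 0.29 on the log2 scale against 0.00 over all genes. At an unadjusted p under 0.05, Xbp1, Ern1, Trib3 and Ppp1r15a were higher with FSH (4 of 10, against 6.42% of all genes) and Ddit3 was lower (1 of 10, against 5.14%). This count of 5 depended on single livers: it was 2 without vehicle replicate 1, 3 without FSH replicate 1, 3 or 4, and 3 with limma-voom, where Trib3 and Ddit3 no longer passed. Xbp1 and Ern1 were below an unadjusted p of 0.05 in each of these fits. In none of the 10 were the groups free of overlap, as they were in 4.11% of all genes (2.19% with FSH above and 1.92% with FSH below). With DESeq2's Wald test, which called 1.65% of the genes it adjusted, Xbp1 was the 1 member past the threshold. The regulators were chosen with earlier results of these data known, so the shares set beside all genes are a description.

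**Figure D1:**
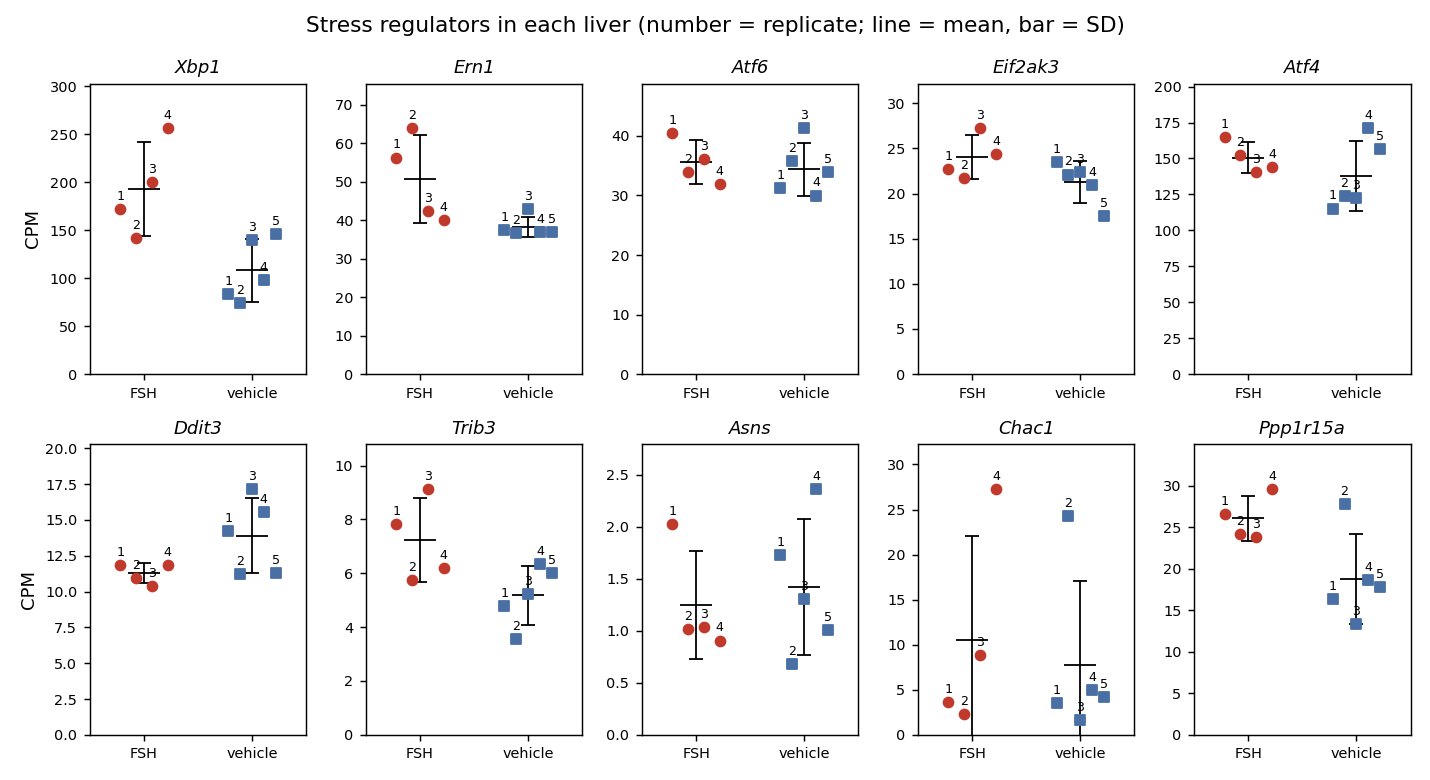
CPM of the 10 regulators in each liver (y axis from 0, a scale of its own per gene), with FSH livers as red circles and vehicle livers as blue squares, each numbered by replicate; horizontal lines are means and bars are SD, which for Chac1 reach below 0 and are clipped there. The FSH livers lie mostly above the vehicle livers for Xbp1 and Ppp1r15a, while Chac1 has 1 very high liver in each group.

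**Figure D2:**
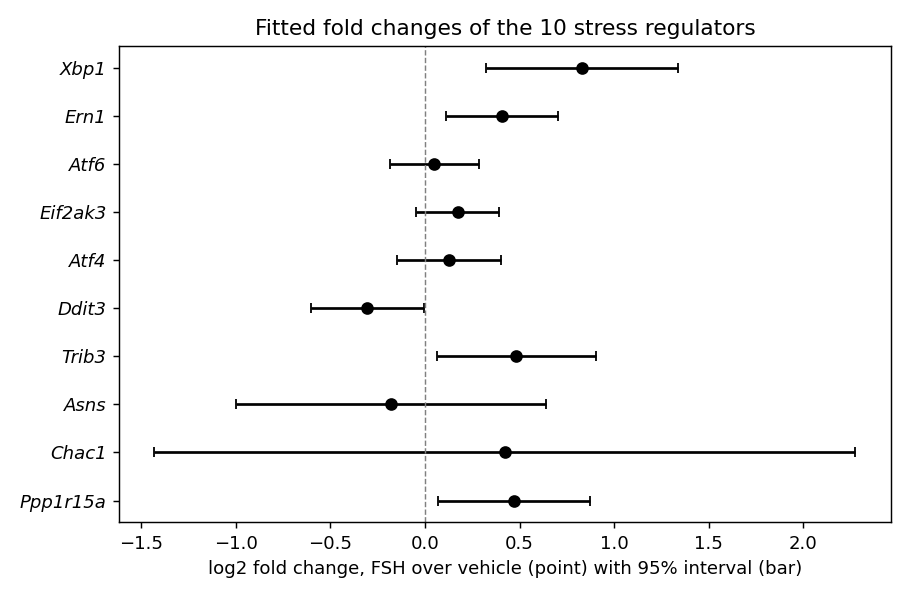
Fitted log2 fold changes of the 10 regulators, FSH over vehicle (points), with 95% intervals from edgeR's quasi-likelihood fit (bars); the dashed line marks no difference. The intervals of Xbp1, Ern1, Trib3 and Ppp1r15a lie above 0 and that of Ddit3 just below it, before any adjustment for the number of genes, and that of Chac1 runs from -1.43 to 2.28.

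Among the sensors, Ern1 (ENSRNOG00000012864), which encodes the kinase and ribonuclease IRE1, stood at 56.3, 64.0, 42.3 and 39.98 CPM in FSH replicates 1 to 4, against 37.4, 36.8, 42.9, 37.1 and 37.1 CPM in vehicle replicates 1 to 5. FSH replicates 1 and 2 lay above every vehicle liver, and FSH replicates 3 and 4 lay below vehicle replicate 3. The means were 50.7 ± 11.4 CPM with FSH (SD, n = 4) and 38.2 ± 2.63 CPM with vehicle (n = 5), a log2 fold change of 0.41 (standard error 0.13, edgeR adjusted p = 0.321). Without FSH replicate 2 the value was 0.27.

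Atf6 (ENSRNOG00000024632), the sensor that is itself a transcription factor, hardly differed between the groups. It stood at 40.5, 34.0, 36.1 and 32.0 CPM with FSH, against 31.3, 35.7, 41.3, 29.99 and 33.9 CPM with vehicle. The groups spanned almost the same range, and the log2 fold change was 0.05 with a 95% interval from -0.19 to 0.28 (edgeR adjusted p = 0.893). Its sign turned without FSH replicate 1 (-0.017) and without vehicle replicate 4 (-0.00099), and it was 0.12 without vehicle replicate 3.

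Eif2ak3 (ENSRNOG00000006069), which encodes PERK, stood at 22.7, 21.7, 27.3 and 24.3 CPM with FSH, against 23.5, 22.1, 22.4, 20.9 and 17.5 CPM with vehicle. FSH replicates 3 and 4 were the highest livers and vehicle replicate 5 the lowest, with the rest between 20.9 and 23.5 CPM. Its log2 fold change was 0.17 (standard error 0.10, edgeR adjusted p = 0.552), or 0.10 without FSH replicate 3 and 0.11 without vehicle replicate 5.

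Among the transcription factors, Xbp1 (ENSRNOG00000010298) showed the largest fitted fold change of the 10. It stood at 172, 142, 201 and 257 CPM with FSH, against 83.1, 74.5, 139, 98.5 and 146 CPM with vehicle. Of the 4 FSH livers, 3 lay above every vehicle liver, and FSH replicate 2 lay between vehicle replicates 3 and 5. The means were 193 ± 48.8 CPM with FSH (SD, n = 4) and 108 ± 32.7 CPM with vehicle (n = 5), 1.78-fold. Its log2 fold change was 0.83 (SE 0.23, 95% interval 0.32 to 1.34), which ranked 210 of all genes by p, at an edgeR adjusted p of 0.243. With DESeq2's Wald test the same change, 0.83, had an adjusted p of 0.0329. When animals were left out in turn it lay between 0.66 and 0.96, at edgeR adjusted p from 0.188 to 0.412, and it was 0.88 without FSH replicate 1, the library that stood apart in albumin. Vehicle replicates 1 and 2, which stood apart on the first principal component, had the lowest Xbp1 of the 9, and the value was 0.75 without replicate 1 and 0.72 without replicate 2.

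Plasma cells, which also make much Xbp1, were looked for with a list of 9 B and plasma cell markers. Their sum was 4.73, 5.28, 10.2 and 8.73 CPM in FSH replicates 1 to 4, against 6.70, 5.94, 3.498, 9.35 and 3.99 CPM in vehicle replicates 1 to 5. The groups overlapped, and FSH replicates 3 and 4, the livers with the most Xbp1, were among the 3 livers with the highest sums, with vehicle replicate 4. Of the 6 markers that passed the filter on low counts, 5 had a fold change above 0 (median 0.23 on the log2 scale), against 50.5% of all genes. Prdm1, a factor of plasma cell differentiation, had 0.60 (SE 0.27), the 1 value of this list at an unadjusted p under 0.05, against 6.42% of all genes higher. It was scarce, at 1.23 to 1.79 CPM with FSH and 0.532 to 1.45 CPM with vehicle. Of these markers Cd79b lay the other way, at -0.37 (SE 0.59). Jchain, the most abundant of them, stood between 1.83 and 6.21 CPM with FSH and between 1.20 and 4.46 CPM with vehicle, and Derl3 was at 0 in every library. The part of these cells in the Xbp1 values was not tested.

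Atf4 (ENSRNOG00000017801), the central factor of the integrated stress response, stood at 165, 153, 141 and 144 CPM with FSH, against 115, 124, 122, 171 and 156 CPM with vehicle. The vehicle livers formed the wider range, with replicate 4 above every FSH liver and replicates 1, 2 and 3 below every FSH liver. Its log2 fold change was 0.13 (standard error 0.12, edgeR adjusted p = 0.740), which was 0.07 without vehicle replicate 1, 0.08 without FSH replicate 1 and 0.21 without vehicle replicate 4.

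Ddit3 (ENSRNOG00000006789), which encodes the pro-apoptotic factor CHOP, was the 1 regulator with an unadjusted p under 0.05 in the downward direction. It stood at 11.8, 10.96, 10.4 and 11.8 CPM with FSH, against 14.2, 11.2, 17.2, 15.5 and 11.3 CPM with vehicle. Vehicle replicates 1, 3 and 4 lay above every FSH liver, and vehicle replicates 2 and 5 lay within the FSH range. The FSH livers were close together, at 11.3 ± 0.702 CPM (SD, n = 4), and the vehicle livers averaged 13.9 ± 2.62 CPM (n = 5). The log2 fold change was -0.30 (standard error 0.13, edgeR adjusted p = 0.422).

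Of the genes that ATF4 switches on, Trib3 (ENSRNOG00000007319), a pseudokinase that restrains ATF4 and insulin signalling through AKT, stood at 7.82, 5.76, 9.14 and 6.18 CPM with FSH, against 4.77, 3.56, 5.23, 6.35 and 6.01 CPM with vehicle. FSH replicates 1 and 3 lay above every vehicle liver, and FSH replicates 2 and 4 lay among the upper vehicle livers. The means were 7.23 ± 1.56 CPM with FSH (SD, n = 4) and 5.18 ± 1.10 CPM with vehicle (n = 5), a log2 fold change of 0.48 (standard error 0.19, edgeR adjusted p = 0.385).

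Asns (ENSRNOG00000007546), which encodes asparagine synthetase, was the scarcest of the 10, with 51, 25, 27 and 21 reads in the FSH livers and 33, 19, 37, 60 and 19 reads in the vehicle livers. These amount to 2.03, 1.01, 1.04 and 0.908 CPM with FSH, against 1.73, 0.684, 1.31, 2.37 and 1.01 CPM with vehicle. FSH replicate 1 and vehicle replicates 1 and 4 were the high livers, and the groups overlapped throughout. The log2 fold change was -0.18 (95% interval -1.002 to 0.64, edgeR adjusted p = 0.889). It was -0.52 without FSH replicate 1 and 0.09 without vehicle replicate 4.

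Chac1 (ENSRNOG00000014387), which encodes an enzyme that breaks down glutathione, varied most from animal to animal. It stood at 3.65, 2.31, 8.83 and 27.3 CPM with FSH, against 3.51, 24.3, 1.63, 5.01 and 4.25 CPM with vehicle. FSH replicate 4 and vehicle replicate 2 were far above the others, and the highest liver held 16.8 times the level of the lowest. Over the other 9 regulators this ratio lay between 1.38 and 3.46. The log2 fold change of 0.42 had a 95% interval from -1.43 to 2.28 (edgeR adjusted p = 0.886), and single livers set it: it was -0.66 without FSH replicate 4 and 1.55 without vehicle replicate 2.

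Ppp1r15a (ENSRNOG00000020938), the feedback gene that encodes the phosphatase subunit GADD34, stood at 26.6, 24.1, 23.9 and 29.6 CPM with FSH, against 16.3, 27.8, 13.3, 18.7 and 17.8 CPM with vehicle. Every FSH liver lay above 4 of the 5 vehicle livers, and vehicle replicate 2, the liver with high Chac1, lay within the FSH range. The means were 26.1 ± 2.68 CPM with FSH (SD, n = 4) and 18.8 ± 5.43 CPM with vehicle (n = 5), a log2 fold change of 0.47 (standard error 0.18, edgeR adjusted p = 0.374). Without vehicle replicate 2 it was 0.65 (edgeR adjusted p = 0.280), and without vehicle replicate 3 it was 0.37. In 7 of the 9 fits that left out 1 animal its unadjusted edgeR p was under 0.05.

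**Figure D3:**
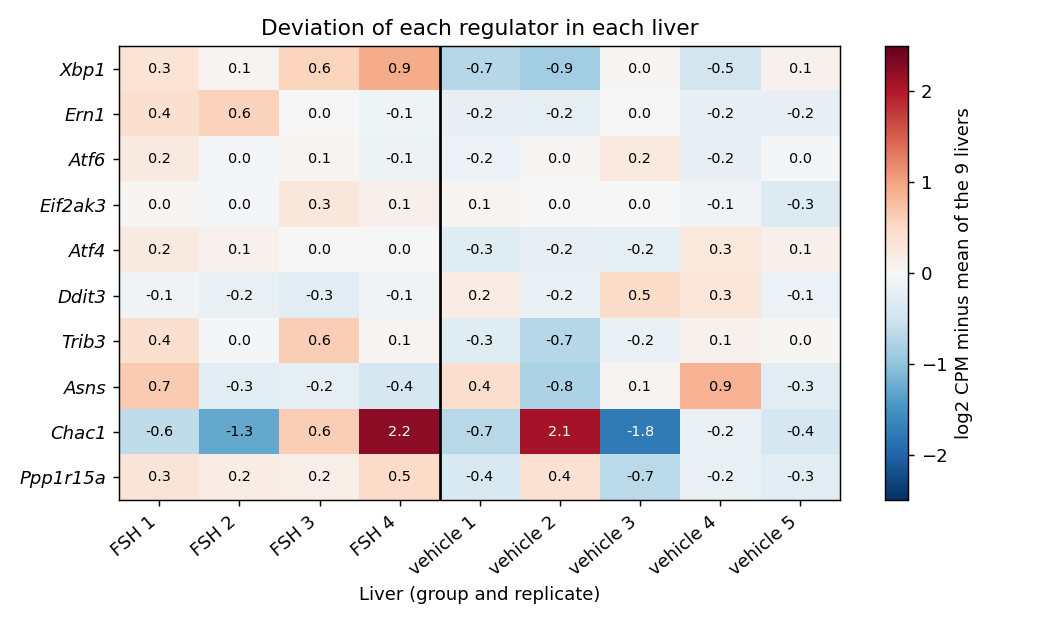
Log2 CPM of each regulator (rows) in each liver (columns, FSH left of the black line, vehicle right of it) minus the mean of the 9 livers, in red above and blue below. Chac1 is high in FSH replicate 4 and vehicle replicate 2, Asns in FSH replicate 1 and vehicle replicate 4, and Xbp1 is above its mean in all FSH livers and slightly in vehicle replicates 3 and 5, so the regulators do not share 1 order of livers.

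Whether the regulators varied together over the 9 livers was examined for all 45 pairs on log2 CPM. No pair passed after adjustment over the 45, and 3 had an exact permutation p under 0.05 for Pearson's r. Xbp1 and Trib3 had a positive r (r = 0.73, exact permutation p = 0.0244, rho = 0.75, exact permutation p = 0.0255, adjusted p = 0.485 and 0.812). Their r was 0.77 without the 2 livers farthest from the Xbp1 median and 0.48 for deviations from the group means. Chac1 and Ppp1r15a gave r = 0.71 (exact permutation p = 0.0323, rho = 0.68, exact permutation p = 0.0503, adjusted p = 0.485 and 0.812), with r = 0.45 without FSH replicate 4 and vehicle replicate 2 and 0.83 for deviations from the group means. Ddit3 and Ppp1r15a had a negative r (r = -0.76, exact permutation p = 0.0182, rho = -0.47, exact permutation p = 0.213, adjusted p = 0.485 and 0.812), with r = -0.51 without vehicle replicates 3 and 4 and -0.60 for deviations from the group means. The pair of Ern1 and Xbp1, sensor and substrate, gave r = 0.35 (exact permutation p = 0.353, rho = 0.45, exact permutation p = 0.23). Their r was 0.45 without FSH replicate 4 and vehicle replicate 2. For deviations from the group means it had the other sign, at -0.38.

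The genes whose levels followed Xbp1 most closely over the 9 livers were, by Pearson's r on log2 CPM among 8295 genes with a mean of at least 5 CPM, Helz2 (0.96), Cyp2j4 (0.95), Mapk14 (0.95), Myd88 (0.95) and Ptgr1 (0.95). Their Spearman's rho lay between 0.867 and 0.967, and r of the deviations from group means between 0.88 and 0.93, so the likeness was present among livers of the same group. Being picked as the highest of so many genes, these values are a description. The pick also favours genes that are higher with FSH, as Xbp1 was, so group differences in the 5 genes are no separate result. Myd88, the adaptor of Toll-like receptors, stood at 51.6, 53.9, 59.5 and 60.7 CPM with FSH, against 42.8, 37.2, 47.6, 41.9 and 47.6 CPM with vehicle. Mapk14, the stress-activated kinase p38, stood at 169, 148, 175 and 194 CPM with FSH, against 109, 124, 140, 133 and 144 CPM with vehicle. The groups did not overlap in these or in Helz2, as in 2.19% of all genes with FSH above. They overlapped in Cyp2j4, with 30.1 to 41.3 CPM with FSH and 20.2 to 34.2 CPM with vehicle, and in Ptgr1, with 53.4 to 79.95 CPM with FSH and 35.2 to 61.5 CPM with vehicle.

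The genes around the regulators were read from 11 lists by role, holding 156 tested genes besides the 10. None passed the FDR threshold. Of the 156, 64 had a fold change above 0 (41.0%, against 50.5% of all genes), with a median of -0.06. At an unadjusted p under 0.05, 6 of the 156 were higher, against 6.42% of all genes, and 12 were lower, against 5.14%.

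**Figure D4:**
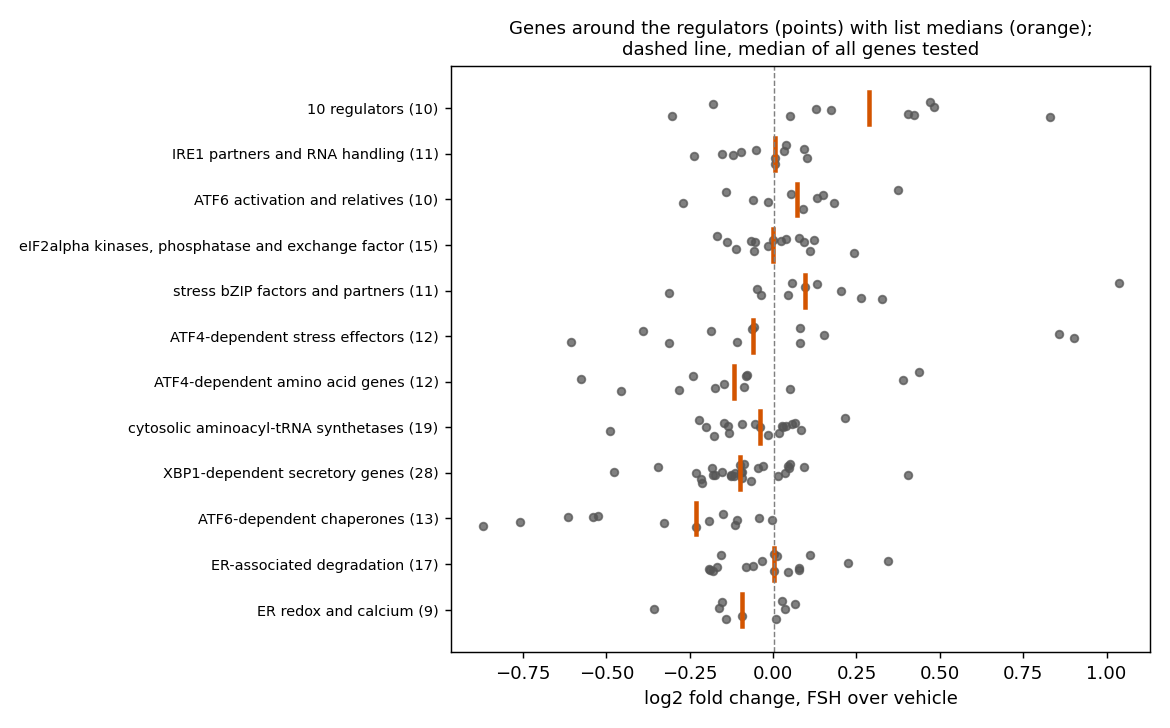
Log2 fold changes, FSH over vehicle, of the tested genes in each list (points, number of genes in brackets) with the list median (orange line) and the median of all genes tested (dashed line); points are spread vertically for legibility. All 13 genes of the ATF6-dependent list lie below 0, the lists around IRE1, eIF2 and ER-associated degradation centre on 0, and the 10 regulators centre at 0.29.

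In the ATF6-dependent list of ER chaperones, 13 of 13 fitted fold changes were below 0 (median -0.23), while 50.5% of all genes were above 0. At an unadjusted p under 0.05, 4 of the 13 were lower, against 5.14% of all genes. The 13 may not be separate observations, since the list also moved between vehicle livers. Its median log2 CPM minus the vehicle mean was -0.40, -0.43, 0.38, 0.05 and 0.15 in vehicle replicates 1 to 5. In FSH replicates 1 to 4 this median was -0.19, -0.15, -0.36 and -0.22. Hspa5, the main ER chaperone BiP, stood at 593, 676, 683 and 760 CPM with FSH, against 716, 705, 1444, 950 and 1108 CPM with vehicle. Hyou1, an exchange factor for it, stood at 176, 161, 156 and 156 CPM with FSH, against 151, 162, 452, 273 and 333 CPM with vehicle. In both genes the FSH livers sat near the level of vehicle replicates 1 and 2, and vehicle replicates 3, 4 and 5 were higher. The log2 fold changes were -0.54 (standard error 0.20, edgeR adjusted p = 0.364) for Hspa5 and -0.76 (standard error 0.29, edgeR adjusted p = 0.374) for Hyou1. Without vehicle replicate 3 they were -0.36 and -0.50, and 2 of the 13 genes then had a fold change above 0. Cdk2ap2, which like Crebrf is in the list but is no chaperone, had -0.33 (standard error 0.12, edgeR adjusted p = 0.363).

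Xbp1 was also set against the ER chaperones of the same liver. The ratio of Xbp1 to Hspa5 CPM was 0.290, 0.210, 0.294 and 0.338 in FSH replicates 1 to 4, against 0.116, 0.106, 0.0965, 0.104 and 0.132 in vehicle replicates 1 to 5. The vehicle livers thus kept nearly 1 ratio while their Hspa5 varied between 705 and 1444 CPM. The ratio averaged 0.283 ± 0.0531 with FSH (SD, n = 4) and 0.111 ± 0.0138 with vehicle (n = 5). Ratios of Xbp1 to the ATF6-dependent genes lay without overlap above the vehicle livers for 11 of 13 genes (Crebrf and Dnajc10 overlapped), and to the XBP1-dependent genes for 16 of 27. Over all other genes with a mean of at least 5 CPM this was so for 26.2% of 8293, since Xbp1 itself is in each ratio. All 13 ATF6-dependent genes had fold changes below 0, so their ratios partly restate that result and the higher Xbp1. The ratio was chosen after its values were seen, and no test is given.

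Genes that XBP1 drives in the secretory pathway were also mostly lower in the fit, with 21 of 28 below 0 (median -0.10), while 50.5% of all genes were above 0. The list's median log2 CPM minus the vehicle mean was -0.087, -0.088, -0.216 and -0.043 in FSH replicates 1 to 4. In vehicle replicates 1 to 5 it was -0.078, -0.126, 0.202, -0.038 and 0.008, so the groups overlapped and vehicle replicate 3 stood highest. Of the 28, 3 were lower at an unadjusted p under 0.05, against 5.14% of all genes. Edem2, which takes part in disposal of misfolded glycoproteins, stood at 50.8, 49.0, 43.3 and 50.2 CPM with FSH, against 53.7, 51.9, 61.7, 58.7 and 57.7 CPM with vehicle. The groups did not overlap, and the log2 fold change was -0.23 (standard error 0.08, edgeR adjusted p = 0.321). Sec23b, a coat protein of vesicles leaving the ER, had -0.48 (SE 0.19), or -0.29 without vehicle replicate 3. Dnajb11, an ER co-chaperone, had -0.34 (SE 0.15), or -0.23 without vehicle replicate 3. Dnajb9, an XBP1 target that binds IRE1, was named after its values were seen: its log2 fold change was 0.40 (standard error 0.18, edgeR adjusted p = 0.435).

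In ER-associated degradation, 9 of 17 genes were above 0. Herpud1, an ER membrane protein of this pathway, stood at 415, 384, 471 and 487 CPM with FSH, against 380, 301, 404, 319 and 324 CPM with vehicle. FSH replicate 2 lay within the vehicle range and the other 3 FSH livers above it. Its log2 fold change was 0.35 (standard error 0.11, edgeR adjusted p = 0.317), the 1 value of this list at an unadjusted p under 0.05. Derl2 had -0.17 (SE 0.08) and Ubxn4 -0.19 (SE 0.10, and -0.10 without vehicle replicate 3). Among ER redox and calcium genes 4 of 9 were above 0, with -0.36 (SE 0.22) for the oxidase gene Ero1b, -0.15 (SE 0.11) for Ero1a and -0.14 (SE 0.11) for P4hb, a disulphide isomerase. Ero1b was at -0.19 without FSH replicate 4, Ero1a at -0.07 without vehicle replicate 2, and P4hb at -0.07 without FSH replicate 3.

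**Figure D5:**
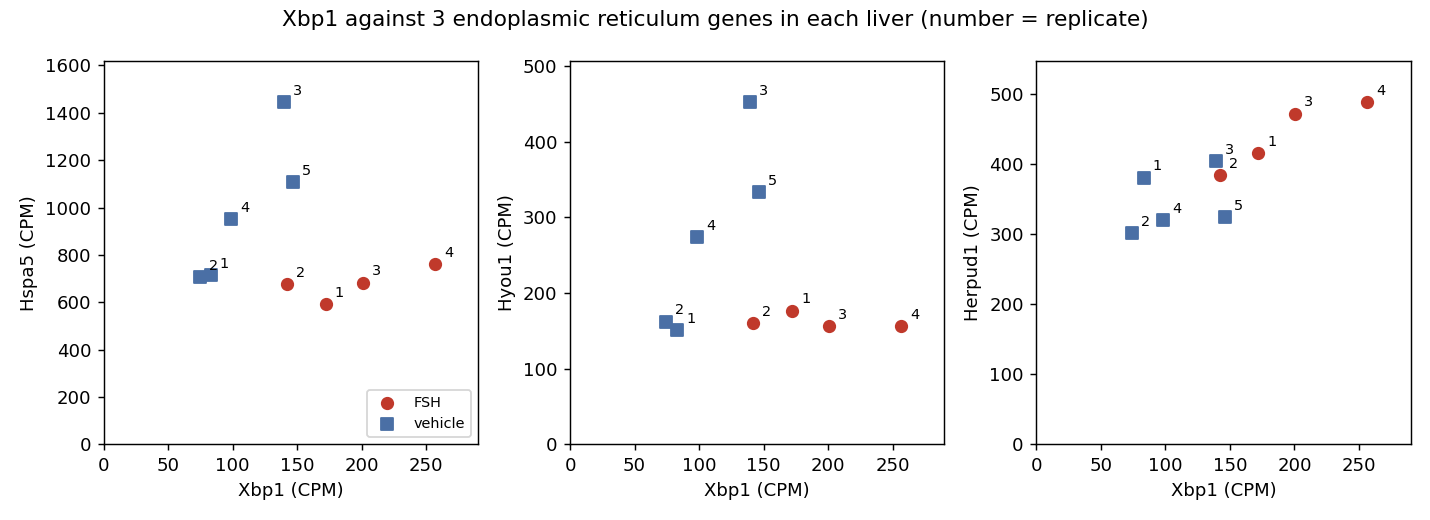
CPM of Hspa5, Hyou1 and Herpud1 (y axes, from 0) against CPM of Xbp1 (x axes, from 0) in each liver, with FSH as red circles and vehicle as blue squares, numbered by replicate; the 3 genes were picked for display after their values were seen. The vehicle livers with the most Xbp1, replicates 3 and 5, had the most Hspa5 and Hyou1, the FSH livers had 142 to 257 CPM of Xbp1 with 593 to 760 CPM of Hspa5, and Herpud1 was highest in FSH replicates 3 and 4.

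Partners of IRE1 stood close to 0, with 6 of 11 above it and a median of 0.01. Rtcb, the ligase that joins the cut Xbp1 messenger, stood at 70.8, 72.2, 68.3 and 61.3 CPM with FSH, against 84.8, 90.5, 73.6, 80.2 and 72.4 CPM with vehicle. The groups met without overlapping, and the log2 fold change was -0.24 (standard error 0.09, edgeR adjusted p = 0.353). Bloc1s1, whose messenger IRE1 also degrades, had -0.15 (SE 0.08, and -0.10 without FSH replicate 1). Sec61a1, a subunit of the ER translocation channel, had -0.12 (SE 0.10), or -0.05 without vehicle replicate 3 and -0.06 without FSH replicate 3.

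Relatives of ATF6 and the proteins that activate it had 6 of 10 values above 0. Creb3l3, a liver transcription factor that is released from the ER membrane as ATF6 is, stood at 669, 694, 670 and 708 CPM with FSH, against 523, 487, 557, 532 and 545 CPM with vehicle. The groups were far apart beside their spread, and the log2 fold change was 0.37 (standard error 0.07, edgeR adjusted p = 0.175, DESeq2 adjusted p = 7.4e-07). Creb3l1, its relative, had -0.27 (SE 0.19, and -0.14 without vehicle replicate 2 or -0.41 without FSH replicate 4), and Nfya, a subunit of the factor that binds CCAAT, had 0.18 (SE 0.12, and 0.10 without vehicle replicate 2).

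The eIF2 machinery was level, with 8 of 15 genes above 0 and a median of 0.00. Of the other eIF2 kinases, Eif2ak2, which encodes the double-stranded RNA sensor PKR, stood at 55.4, 43.3, 49.0 and 55.4 CPM with FSH, against 44.9, 42.9, 44.3, 37.0 and 45.4 CPM with vehicle. FSH replicate 2 lay within the vehicle range, and the log2 fold change was 0.24 (standard error 0.09, edgeR adjusted p = 0.374). The kinase genes Eif2ak1 and Eif2ak4 had 0.00 (SE 0.06) and 0.04 (SE 0.17) and were named to complete the family, after their values were seen. Eif2b4 and Eif2b3, subunits of the exchange factor, had 0.09 (SE 0.06) and -0.17 (SE 0.13, or -0.09 without vehicle replicate 2 and -0.11 without FSH replicate 4).

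Genes downstream of ATF4 pointed both ways in the fit. Among its stress effectors 5 of 12 were above 0, with Fgf21 at the top. Fgf21, a hormone that the liver secretes in fasting and in amino acid shortage, stood at 11.6, 10.5, 11.1 and 9.38 CPM with FSH, against 4.71, 3.49, 4.66, 8.84 and 6.86 CPM with vehicle. The groups did not overlap, although FSH replicate 4 and vehicle replicate 4 came close, and the log2 fold change was 0.90 (standard error 0.23, edgeR adjusted p = 0.219, DESeq2 adjusted p = 0.0217). Trib1, a pseudokinase related to Trib3, had 0.86 (standard error 0.29, edgeR adjusted p = 0.334), and Ddit4, an inhibitor of mTOR signalling, had -0.61 (SE 0.32, and -0.38 without vehicle replicate 4).

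Amino acid genes of the ATF4 programme had 3 of 12 values above 0 (median -0.12), a count that was 5 without FSH replicate 3 or without vehicle replicate 1. Psph, the last enzyme of serine synthesis, stood at 5.16, 5.52, 4.98 and 3.80 CPM with FSH, against 7.07, 9.29, 6.96, 6.91 and 5.95 CPM with vehicle. Every FSH liver lay below every vehicle liver, and the log2 fold change was -0.57 (standard error 0.15, edgeR adjusted p = 0.231, DESeq2 adjusted p = 0.0431). The amino acid transporters Slc38a2 and Slc6a9 had 0.39 (SE 0.24) and 0.44 (SE 0.35). Slc38a2 was at 0.62 without vehicle replicate 2, and Slc6a9 at 0.01 without FSH replicate 1, its highest liver at 184 CPM, and at 0.28 without vehicle replicate 3.

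Of the cytosolic aminoacyl-tRNA synthetases, a family of which ATF4 drives some members, 8 of 19 were above 0. This count was 5 when FSH replicate 1 or FSH replicate 2 was left out. Wars, the tryptophan enzyme, stood at 19.6, 17.7, 21.0 and 21.0 CPM with FSH, against 23.7, 25.6, 33.1, 26.1 and 30.5 CPM with vehicle. The groups did not overlap, and the log2 fold change was -0.49 (standard error 0.11, edgeR adjusted p = 0.190, DESeq2 adjusted p = 0.00921). Hars, the histidine enzyme, had -0.20 (SE 0.07) and Nars, the asparagine enzyme, -0.22 (SE 0.09), each at an unadjusted p under 0.05. Eprs, the glutamate and proline enzyme, lay the other way at 0.22 (SE 0.09), also at an unadjusted p under 0.05, and was named after its values were seen.

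Stress factors of the bZIP family and their partners, a list that includes Nupr1, had 8 of 11 values above 0 (median 0.09). Atf3, an early stress factor, stood at 10.8, 2.64, 4.05 and 2.07 CPM with FSH, against 1.62, 3.17, 1.20, 3.55 and 2.34 CPM with vehicle. FSH replicate 1, the library that stood apart in albumin, held the highest value, and the log2 fold change of 1.04 (standard error 0.49, edgeR adjusted p = 0.451) was 0.29 without it. Jdp2 had 0.33 (SE 0.21), with 0.20 and 0.50 when FSH replicates 1 and 2 were left out, and Cebpg 0.13 (SE 0.09, and 0.06 without FSH replicate 3).

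Markers of other liver cells were set beside these values. Their summed CPM lay between 162 and 213 with FSH and 129 and 178 with vehicle for 5 sinusoidal endothelial markers, and between 166 and 198 with FSH and 209 and 275 with vehicle for 6 stellate cell markers. Most of the stellate sum was Col3a1, at means of 115 CPM with FSH and 158 CPM with vehicle, so it describes mainly this gene. All 6 stellate markers had log2 fold changes below 0, from -0.92 for Col1a1 to -0.03 for Pdgfrb. Kupffer cell markers summed to 277 to 396 CPM with FSH and 145 to 445 CPM with vehicle, and cholangiocyte markers to 8.29 to 15.9 CPM with FSH and 9.82 to 17.97 CPM with vehicle. Erythroid genes summed to 121 to 490 CPM with FSH and 75.9 to 157 CPM with vehicle, and neutrophil markers to 1.27 to 3.85 CPM with FSH and 1.116 to 3.47 CPM with vehicle. T and NK cell markers summed to 1.47 to 2.24 CPM with FSH and 1.44 to 3.51 CPM with vehicle, with Klrb1 at 0 in every library. Genes listed for adipocytes summed to 90.5 to 127 CPM with FSH and 71.4 to 106 CPM with vehicle, with Lep at 0. Nearly all of this sum was Cidec, with 21815 reads over all libraries, against 10 for Adipoq and 2 for Plin1. It therefore describes Cidec and not adipocytes. Pancreatic acinar markers summed to 21.2 to 50.8 CPM with FSH and 11.2 to 44.2 CPM with vehicle, and of these Cela2a, Ctrb1 and Pnlip were at 0 in every library. The part of these cell types in the values above was not tested.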

How the data were processed

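Liver of 9 rats, 4 with FSH and 5 with vehicle, was sequenced as paired-end, strand-specific messenger RNA libraries, 1 per animal, per the labels' protocols. The deposited table holds raw whole-number counts per gene, not normalised by the authors. Per the submitters' processing notes STAR, edgeR and DESeq2 were used, with the genome rn6, and no versions or roles are named. How strand entered the counting, and which annotation, is not given in the sources used here, so reads of a gene and of one on its opposite strand cannot be told apart. Of its genes, 8868 were at 0 in all libraries.

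The groups were tested with edgeR 4.0.16 under R 4.3.3 (TMM scaling, filtering by group, quasi-likelihood F-test, 2-sided, Benjamini-Hochberg adjustment over 11924 genes holding 99.96% of counts, threshold FDR 0.05). Each SE is the fitted log2 fold change over the square root of F. Correlations used log2 CPM with a prior count of 2 and all 362880 permutations. Named genes were the 10 members, the 3 smallest p-values of each list and the 5 genes most like Xbp1; others are marked. The members, lists and tests were chosen with earlier results of these data known.

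The fit was tested on simulated counts for this comparison (11847 genes): 13.4%, 81.8% and 97.0% of genes changed by 0.5, 1 and 2 on the log2 scale were called, and 8 of 11648 unchanged ones. No 2 libraries of a group were near-copies (chi-square per degree of freedom at least 25.9). Alternatives were DESeq2 1.42.0, voom with sample weights in limma 3.58.1, the replicate number as a block, other scalings and filters, an FDR of 0.10 and leaving out each animal.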

Additional observations from a re-analysis of the deposited data

Results flagged for a closer look

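Within each group, the distance of the highest and lowest liver from its neighbour was set against the range, for 48 named genes in 2 groups, 96 sets in all. In 4 sets 1 liver stood apart, where chance gives about 4.8. Of the regulators, Chac1 stood at 24.3 CPM in vehicle replicate 2 (next 5.01 CPM), Asns at 2.03 CPM in FSH replicate 1 (next 1.04 CPM) and Ern1 at 42.9 CPM in vehicle replicate 3 (next 37.4 CPM). Sec61a1 stood at 397 CPM in vehicle replicate 3 (next 334 CPM), the liver with the highest Hspa5 and Hyou1.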

How the results depend on the processing

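Across the 10 regulators the count past the threshold was 0 in the main analysis and in every alternative except DESeq2's Wald test, where it was 1 (Xbp1). Over all genes the count was 4 in the main analysis, 181 with DESeq2 and 12 at an FDR of 0.10, and it lay between 0 and 4 when each of the 9 animals was left out in turn. With the replicate number of the labels as a block 5 genes and 0 regulators passed, and Xbp1 had a log2 fold change of 0.97 (edgeR adjusted p = 0.199). Over all tested genes same-numbered animals did not deviate together (correlations between -0.0407 and 0.0351). No pairing by number was seen, though these values cannot show how the animals were handled. Leaving out animals, the log2 fold change of Atf6 lay between -0.0173 and 0.125 (below 0 without FSH replicate 1 and without vehicle replicate 4), that of Asns between -0.517 and 0.0898 (above 0 without vehicle replicate 4) and that of Chac1 between -0.659 and 1.55 (below 0 without FSH replicate 4), where the main values had the other sign; the cause was not tested. Asns had the fewest reads of the regulators, 19 to 60 per library, and varied by 41.9% of its mean with FSH and 46.1% with vehicle (coefficient of variation).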
